A study of Mus musculus with 6 samples.

Results

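Cells with transcripts of both *Xcl1* and *Crtam* were examined among CD8 T cells infiltrating B16-OVA tumors (TILs). A cell was a member if it held at least 3 UMIs of *Xcl1* and at least 1 UMI of *Crtam*, a UMI being the tag that counts 1 captured transcript. Members were sought among tumor base cells, which are barcodes that have 200 to 6000 detected genes, hold a UMI of all of *Cd2*, *Cd8a* and *Cd8b1*, and take at most 3% of their UMIs from mitochondrial genes. The rule found 412 members among 15744 tumor base cells, of 47860 barcodes called cells in 4 libraries. The CD8-IFNγRKO tumor library held 301 of them among 8638 base cells, and the control tumor library 111 among 7106. Members were chosen by their counts of *Xcl1* and *Crtam*, so that the levels of these 2 genes describe the choice and support nothing.

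B16-OVA is a B16 mouse melanoma line that lacks tyrosinase (Tyr-/-) and carries mCherry and ovalbumin. The line was engrafted into mice, for which the study's methods give both sexes and an age of 6 to 10 weeks, and the labels give day 12 for the harvest of tumors and draining lymph nodes (LN). CD8-IFNγRKO mice carried CD8-Cre, the Rosa26Tomato reporter and IFNgR1flox/flox, so that the receptor gene was deleted where the CD8α promoter drove Cre, and control mice carried CD8-Cre and Rosa26Tomato with an intact receptor gene. Sorted CD45+ CD3+ CD8+ Tomato+ cells of 3 pooled mice gave 1 library of 5′ transcript ends per tissue and genotype, and the tumor libraries also have T cell receptor (TCR) sequences. With 1 library per group no test can be made and no p-value is given. All intervals are exact 95% intervals and cover counting error only, and genotype cannot be told apart from library, sort or mouse. No tag ties a cell to a mouse.

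XCL1 is a chemokine that attracts cross-presenting dendritic cells through the receptor XCR1. CRTAM is an adhesion molecule that appears on CD8 T cells and NK cells after stimulation and binds CADM1. Both genes, like those of CCL1 (the ligand of CCR8) and interleukin-2, are known as genes that T cells switch on after their receptor is engaged, many of them through NFAT and NF-κB factors. IFNγ, made by the same kind of cell, signals through a receptor whose ligand-binding chain is encoded by *Ifngr1*.

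The base cells held 94004352 UMIs in the CD8-IFNγRKO and 59500811 in the control tumor library. Members were more deeply sampled than the other base cells. Their median was 14674 UMIs against 9232 in CD8-IFNγRKO and 15987 against 6248 in control, and the median numbers of genes were 3635 against 2849 and 3863 against 2211. Single members ranged from 2680 to 41880 UMIs in CD8-IFNγRKO and from 2894 to 42633 in control. Median mitochondrial shares were alike, at 0.697% in members and 0.724% in the others of CD8-IFNγRKO, and 0.670% and 0.631% in control. Values are therefore also given against other cells weighted to the members' spread of UMIs over 5 bins (depth matched), or after thinning each cell to 5000 UMIs. Shares of cells with a gene after thinning keep the members chosen at full depth, while counts of genes after thinning apply the rule again. The 2 tumor libraries shared 169 barcodes, 72 of them base cells in both, and none was a member in both.

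The members held the transcripts of CD8 T cells. Summed over 11 T cell markers, among them *Cd3d*, *Cd3e* and *Cd3g* of the CD3 complex, members had 7083 CPM (UMIs scaled to equal library totals) against 8142 in the other cells of CD8-IFNγRKO, and 9683 against 10300 in control. None of 301 and none of 111 members had 3 or more UMIs of the NK genes *Ncr1* and *Klrb1c*, or of *Cd4* and *Foxp3*, with upper bounds of 1.22% and 3.27% of members. Over all 14 NK cell markers, the summed level was 817 CPM in members and 491 CPM in the others of CD8-IFNγRKO, and 433 and 458 CPM in control. *Gzma* and *Cd160*, described below, are on this list, and the part of NK cells was not tested. At least 3 UMIs of the macrophage genes *C1qa*, *C1qb*, *C1qc*, *Lyz2* and *Csf1r* were found in 2 CD8-IFNγRKO members (0.664%) and 2 control members (1.80%), against 5 (0.0600%) and 10 (0.143%) of the other cells. Such cells thus made up a larger share of members, which were also deeper, but the intervals overlapped. They ran from 0.0806% to 2.38% in members and from 0.0195% to 0.140% in the others of CD8-IFNγRKO. In control they ran from 0.219% to 6.36% and from 0.0686% to 0.263%. The part of these cells in the results was not tested beyond the gene counts without them. Over all 20 macrophage and dendritic cell markers, the summed level was 80.3 CPM in members and 104 CPM in the others of CD8-IFNγRKO, and 127 and 195 CPM in control. *Cd74*, the invariant chain of antigen presentation, was the most abundant of them in members, and *Adgre1*, *Cd209a* and *Flt3* were at 0 UMIs. In CD8-IFNγRKO, 4 members (1.33%) and 217 of the other cells (2.60%) had 3 or more UMIs of the γδ T cell genes *Trdc* and *Tcrg-C1*. *Trdc* itself was at 0 in members. *Xist*, transcribed in female cells, had 0 UMIs in all CD8-IFNγRKO and 1 UMI in all control tumor base cells, while the Y-linked *Ddx3y* stood at 30.3 and 35.4 CPM in the same cells.

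*Xcl1* (ENSMUSG00000026573) lies at chr1:164931644-164935522 and *Crtam* (ENSMUSG00000032021) at chr9:40972798-41004628 of GRCm38.p6, a patch release of the build the counts were made on. In members, the pooled level of *Xcl1* was 2244 CPM (interval 2202 to 2287) in CD8-IFNγRKO and 1027 CPM (983 to 1073) in control, against 36.9 and 14.0 CPM in the other cells. A CD8-IFNγRKO member held a median of 16 *Xcl1* UMIs and up to 420, and a control member a median of 8 and up to 176. *Crtam* stood at 295 CPM in CD8-IFNγRKO and 239 CPM in control members, with medians of 2 and 3 UMIs per cell, against 15.6 and 15.9 CPM in the others. Of the other base cells, 11.0% in CD8-IFNγRKO and 4.20% in control had at least 1 UMI of *Xcl1*, and 11.9% and 8.25% had *Crtam*. Barcodes with macrophage genes and no T cell gene, which should lack both, numbered only 3 and 5, with median depths of 2411 and 5887 UMIs. None of them had a UMI of either gene, which leaves shares of up to 70.8% and 52.2% possible.

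The limit of the rule divided a continuous range. Just inside it, 25 CD8-IFNγRKO and 23 control members had exactly 3 *Xcl1* UMIs. Just outside it, 73 and 15 cells had 2 *Xcl1* UMIs and *Crtam*, and 251 and 52 cells had 3 or more *Xcl1* UMIs and no *Crtam*. *Ccl1* was 5.01 CPM just inside and 65.7 CPM in the cells with 2 *Xcl1* UMIs in CD8-IFNγRKO, and 448 and 235 CPM in control. *Ccr7*, the receptor that guides T cells to lymph nodes, was 113 and 187 CPM in CD8-IFNγRKO and 252 and 924 CPM in control, the last value from 15 cells.

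Members made up 3.48% (3.11 to 3.89) of base cells in CD8-IFNγRKO and 1.56% (1.29 to 1.88) in control. Deeper cells pass a limit on UMIs more easily, and the libraries differed in depth. After thinning to 5000 UMIs, with 2229 CD8-IFNγRKO and 2642 control cells left out as shallower, 151 of 6409 cells (2.36%, 1.999 to 2.76) and 37 of 4464 (0.829%, 0.584 to 1.14) met the rule. The share was the higher one in the CD8-IFNγRKO library at each depth, and the intervals did not overlap. In draining LN the same rule found 16 of 6754 CD8-IFNγRKO base cells, 0.237% (0.135 to 0.384), and 14 of 6658 control base cells, 0.210% (0.115 to 0.353). The LN shares lay below both tumor shares at full depth, and their intervals overlapped each other. LN base cells were shallower than those of the tumor, with medians of 3865.5 and 4052.5 UMIs, and were not thinned. With tumor cells thinned to 3000 UMIs, the control tumor share was 0.374% (0.234 to 0.565), and its interval overlapped both LN intervals. The CD8-IFNγRKO tumor share was then 1.49% (1.23 to 1.80), above both.

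**Figure D1:**
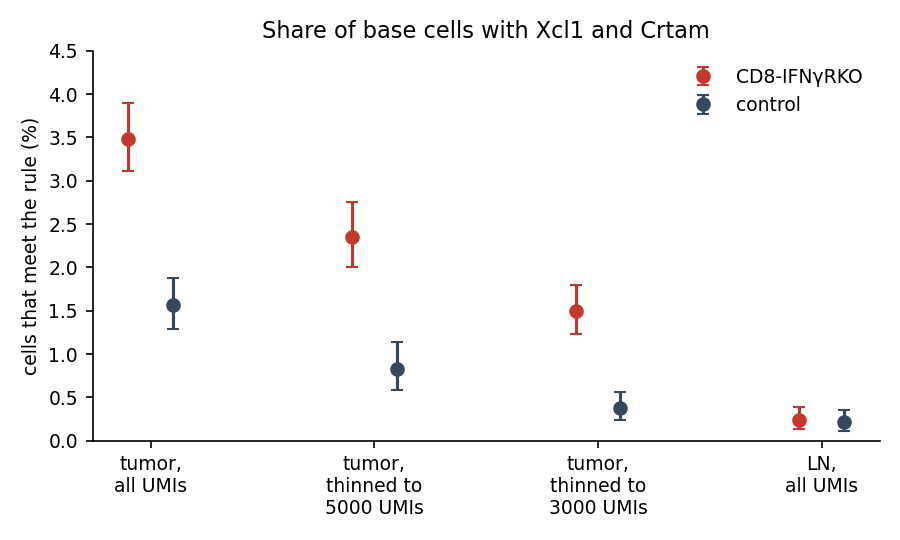
Percent of base cells that met the rule in each library, with exact 95% intervals for counting error, at full depth and after thinning to 5000 or 3000 UMIs, and in LN. The 2 tumor libraries stand at 3.48% and 1.56%, and both fall with thinning. Both LN libraries stand below 0.5%, as does the control tumor at 3000 UMIs (0.374%).

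Members were set against the other tumor base cells of their own library in 3261 genes with at least 50 CPM in members or others of either library. A gene could meet this limit through members alone, where it was high, so that the limit itself favours a count as higher. The counts of higher genes, here and in the lists, therefore describe the genes and test nothing. Differences are log2 ratios of pooled CPM with 10 CPM added. Genes at least 2-fold higher in members in both libraries numbered 12 (0.368% of those tested), and 1 gene (0.0307%) was at least 2-fold lower. These counts were 23 and 8 with the mean of each cell's CPM. They were 36 and 22 with cells thinned to 5000 UMIs, where the rule was applied again and left 151 CD8-IFNγRKO and 37 control members. At 1.5-fold, 40 genes (1.23%) were higher and 26 (0.797%) lower in both. Against depth-matched cells, 33 of these 40 and only 5 of these 26 passed 1.5-fold, the 5 being *Fcer1g*, *Fgl2*, *Gm36723*, *Gzmf* and *Entpd1*. Over all genes tested, the median log2 ratio was 0.01 in CD8-IFNγRKO and 0.03 in control, with 41.7% of genes above 0 in both and 36.0% below 0 in both.

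The 12 genes higher by at least 2-fold were *Ccl1*, *Ccr7*, *Penk*, *Gadd45b*, *Cnih2*, *Rel*, *Il2*, *Tnfsf11*, *Crabp2*, *Snhg15*, *Cd9* and *Tagap*. Of these, *Ccr7*, *Gadd45b*, *Rel* and *Tagap* had at least 50 CPM in the others of a library. The rest met that limit only through the members. Among the chemokines, *Ccl1* led. It was 212 CPM in members and 13.1 CPM in the others of CD8-IFNγRKO, a log2 ratio of 3.26 (3.17 to 3.36), and 760 and 24.7 CPM in control, a log2 ratio of 4.47 (4.38 to 4.56). Against depth-matched cells the ratios were 3.07 and 4.36. Not every member had it: 75 of 301 CD8-IFNγRKO members (24.9%) and 60 of 111 control members (54.1%) held a *Ccl1* UMI, against 4.14% and 4.16% of the others. In LN, by comparison, none of 6738 CD8-IFNγRKO base cells outside the rule had a *Ccl1* UMI. *Ccl3* and *Ccl4*, inflammatory chemokines of activated T cells, were higher by 1.43 and 1.43 in CD8-IFNγRKO and by 0.88 and 0.93 in control on the log2 scale. *Ccl5*, another inflammatory chemokine, went the other way, with -0.51 and -0.55, or -0.19 and -0.27 against depth-matched cells. Thus 3 of the 4 chemokines tested were at least 1.5-fold higher in both libraries, against 1.23% of all genes, *Ccl1* having met the 50 CPM limit only through the members.

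*Xcl1* and *Ccl1* are shown here by the 250 bases before their start sites, since these ligand genes lead the members, one by the choice and the other by its ratio. Both lie on the minus strand, Xcl1 at chr1:164935523-164935772 and Ccl1 at chr11:82179813-82180062 (RefSeq, GRCm38.p6), and are written 5′ to 3′. Capitals mark matches on either strand to GGAAA, the core that NFAT factors bind, and to GGGA followed by any 4 bases and CC, a pattern of NF-κB sites.
Xcl1: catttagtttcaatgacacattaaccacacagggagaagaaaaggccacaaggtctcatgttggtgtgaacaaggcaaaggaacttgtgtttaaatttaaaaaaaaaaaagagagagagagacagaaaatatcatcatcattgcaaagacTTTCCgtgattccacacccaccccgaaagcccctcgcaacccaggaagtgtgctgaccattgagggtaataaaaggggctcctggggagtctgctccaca
Ccl1: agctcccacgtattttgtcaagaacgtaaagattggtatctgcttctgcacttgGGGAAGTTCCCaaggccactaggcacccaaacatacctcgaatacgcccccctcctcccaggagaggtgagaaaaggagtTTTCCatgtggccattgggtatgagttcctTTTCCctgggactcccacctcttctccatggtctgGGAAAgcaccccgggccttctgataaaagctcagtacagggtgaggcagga
GGAAA matched once in *Xcl1* and 3 times in *Ccl1*. The NF-κB pattern matched 2 overlapping stretches in *Ccl1* and none in *Xcl1*, and TGANTCA, the AP-1 pattern, matched neither. Of 32851 mouse promoters in windows of the same kind, 55.6% hold GGAAA, 17.6% the NF-κB pattern and 6.75% TGANTCA. Of the 12 genes named as higher, 9 had a window in the table, of which 7 held GGAAA, 3 the NF-κB pattern and 0 TGANTCA. *Ccr7*, *Penk* and *Crabp2* had none in the table.

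*Il2*, which is among the genes given to mark these cells, rested on very few of them. Its 67 UMIs in CD8-IFNγRKO came from 6 of 301 members, with 53 in 1 cell, and its 155 UMIs in control from a single cell of 111. The pooled ratios of 1.22 and 3.12 therefore describe 7 cells, and *Il2* did not mark the members as a group. Outside the members, 17 of 8337 and 5 of 6995 cells had an *Il2* UMI.

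*Ifng* was far more widespread. It was detected in 85.0% of CD8-IFNγRKO and 92.8% of control members, against 74.1% and 71.7% of the others. With cells thinned to 5000 UMIs, the shares were 64.9% of members and 66.4% of others in CD8-IFNγRKO, and 81.6% and 70.5% in control, so that at equal depth the share was higher in members in control but not in CD8-IFNγRKO. Its level was 1081 against 389 CPM in CD8-IFNγRKO, a log2 ratio of 1.45, and 693 against 466 CPM in control, a ratio of 0.56, and 5 cells held 32.7% of the UMIs of CD8-IFNγRKO members. *Tnf*, a cytokine made by the same effector cells, showed little difference, with ratios of 0.29 and 0.02. Of the other cytokines in the list, *Penk*, the precursor of enkephalin peptides, was 116 against 20.02 CPM in CD8-IFNγRKO and 159 against 24.6 CPM in control. These ratios were 2.07 (1.95 to 2.19) and 2.29 (2.13 to 2.45). *Penk* was found in 17.9% and 21.6% of members, and 5 cells held 82.0% of its UMIs in control. In all, 2 of 11 cytokines tested, *Il2* and *Penk*, were at least 1.5-fold higher in both libraries, against 1.23% of all genes. Both rest on few cells in control and met the 50 CPM limit only through the members, so that the count supports nothing further. *Il3*, *Il4*, *Il5*, *Il21* and *Il24* had 0 UMIs in members.

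Among the ligands of the TNF family, *Tnfsf11*, which encodes RANKL, was 29.9 against 8.08 CPM in CD8-IFNγRKO (log2 1.14, 0.96 to 1.33) and 104 against 25.7 CPM in control (1.67, 1.48 to 1.86). It was the only one of 5 tested past 1.5-fold in both (1.23% of all genes were), and met the 50 CPM limit only through the members. *Tnfsf14*, which encodes LIGHT, lay under the 50 CPM limit, with 19.8 against 1.97 CPM in CD8-IFNγRKO and 14.6 against 2.76 CPM in control.

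Receptors and surface molecules were led by *Ccr7*. It was 260 against 51.3 CPM in CD8-IFNγRKO, a log2 ratio of 2.14 (2.05 to 2.22), and 291 against 61.5 CPM in control, a ratio of 2.07 (1.95 to 2.20), and was detected in 43.2% and 48.6% of members. The other genes of naive and stem-like T cells did not follow it: *Ccr7* was the only one of 9 tested that passed 1.5-fold. *Tcf7*, the transcription factor of stem-like T cells, was 24.97 against 21.4 CPM in CD8-IFNγRKO and 9.04 against 14.3 CPM in control. *Ccl1* and *Ccr7* occurred partly in the same members, 39 cells in CD8-IFNγRKO and 31 in control, which is 52.0% and 51.7% of the members with *Ccl1* and 30.0% and 57.4% of those with *Ccr7*. At least 1 UMI of *Ccl1*, *Ccr7* or *Penk* was found in 62.1% of CD8-IFNγRKO and 76.6% of control members, against 21.7% and 16.2% of the others.

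Some receptors of activated T cells were also higher. *Cd160* had log2 ratios of 1.44 and 0.87, *Tnfrsf9*, which encodes 4-1BB, 0.65 and 0.61, and *Il2ra*, the interleukin-2 receptor α chain, 0.82 and 1.11, in CD8-IFNγRKO and control. These were the 3 of 20 activation receptors past 1.5-fold higher in both (1.23% of all genes were), with *Sema4a*, a semaphorin, lower at -0.65 and -0.76. Against depth-matched cells *Tnfrsf9* had 0.59 and 0.51 and *Sema4a* -0.60 and -0.56, under the limit in control, which left 2 of 20 higher (1.26% of all genes). The tetraspanin gene *Cd9* was 59.4 against 22.9 CPM and 39.7 against 11.6 CPM. Of 13 inhibitory receptors and related genes, 3 lay above and 8 below 0 in both libraries, where 41.7% and 36.0% of all genes did. Against depth-matched cells 6 lay above (46.2%) and 5 below (38.5%), near the 38.1% and 35.8% of all genes. *Entpd1*, the ectonucleotidase CD39, was lower at -1.10 and -0.75, and *Cd38* at -0.71 and -0.69, or -0.56 and -0.49 against depth-matched cells. *Pdcd1*, which encodes PD-1, had -0.21 and -0.36, and *Lag3* -0.02 and -0.08. *Havcr2*, which encodes TIM-3, had -0.39 and -0.47, and with cells thinned to 5000 UMIs was found in 49.5% of members against 59.2% of others in CD8-IFNγRKO and in 55.3% against 72.5% in control.

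Of the factors that respond to TCR signals, *Nr4a1* was 287 against 115 CPM in CD8-IFNγRKO and 483 against 254 CPM in control, with log2 ratios of 1.25 and 0.90. *Nr4a3* had ratios of 1.28 and 0.80. *Nr4a2* had 0.50 and 0.59, under the 1.5-fold limit in CD8-IFNγRKO, and *Egr1* lay below 0, at -0.21 and -0.59. *Egr2* was under 50 CPM, with 15.3 against 1.97 CPM and 17.1 against 4.12 CPM. None of 19 immediate early and AP-1 genes passed 1.5-fold in both libraries, with medians of 0.23 and 0.23. Against depth-matched cells 3 of them did (15.8%, against 1.26% of all genes), with medians of 0.35 and 0.36. There, 15 of the 19 lay above 0 in both libraries (38.1% of all genes did). The 13 calcium and NFAT genes tested had medians of -0.06 and -0.11, and none passed either.

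Among the lists with more than 5 genes tested, that of NF-κB genes had the highest share past 1.5-fold. Of 18 tested, 8 (44.4%) were at least 1.5-fold higher in both libraries, against 1.23% of all genes, and the medians were 0.61 in CD8-IFNγRKO and 0.40 in control. They were the subunit genes *Rel* and *Nfkb1*, the inhibitor genes *Nfkbib* and *Nfkbid*, the adaptor gene *Traf1*, the survival genes *Bcl2a1b* and *Bcl2a1d*, and the stress-inducible *Gadd45b*. Of them, *Nfkbid* met the 50 CPM limit only through the members. *Gadd45b* was 303 against 99.1 CPM in CD8-IFNγRKO (log2 1.52, 1.44 to 1.60) and 476 against 163 CPM in control (1.49, 1.40 to 1.59), and was detected in 84.7% and 93.7% of members. *Rel* was 97.2 against 35.2 CPM and 184 against 66.7 CPM, with ratios of 1.25 and 1.34. *Nfkbia*, which encodes IκBα, stayed under the limit at 0.44 and 0.26, as did *Tnfaip3*, the deubiquitinase A20, at 0.18 and -0.06. *Bcl2a1b* and *Bcl2a1d* are near-identical copies, whose reads may be split between them.

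The remaining higher genes have other roles. *Tagap*, a GTPase-activating protein of activated T cells, was 130 against 59.0 CPM and 190 against 81.3 CPM. *Cnih2*, a cornichon protein known from receptor traffic in neurons, was 53.2 against 11.9 CPM and 85.9 against 27.2 CPM. *Crabp2*, which binds retinoic acid, was found in 25 members of each library, which is 8.31% of members in CD8-IFNγRKO and 22.5% in control, against 0.480% and 0.801% of the others. *Snhg15*, a small nucleolar RNA host gene, had ratios of 1.10 and 1.17. Of 17 genes of MYC and amino acid transport, 16 lay above 0 in both (41.7% of all genes did), with medians of 0.70 and 0.32. Against depth-matched cells 14 did (38.1% of all genes), with medians of 0.60 and 0.23, and none passed 1.5-fold in both. *Srm*, which encodes spermidine synthase, had 1.31 and 0.89, or 1.11 and 0.53 against depth-matched cells, and *Myc* itself 1.03 and 0.50.

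**Figure D2:**
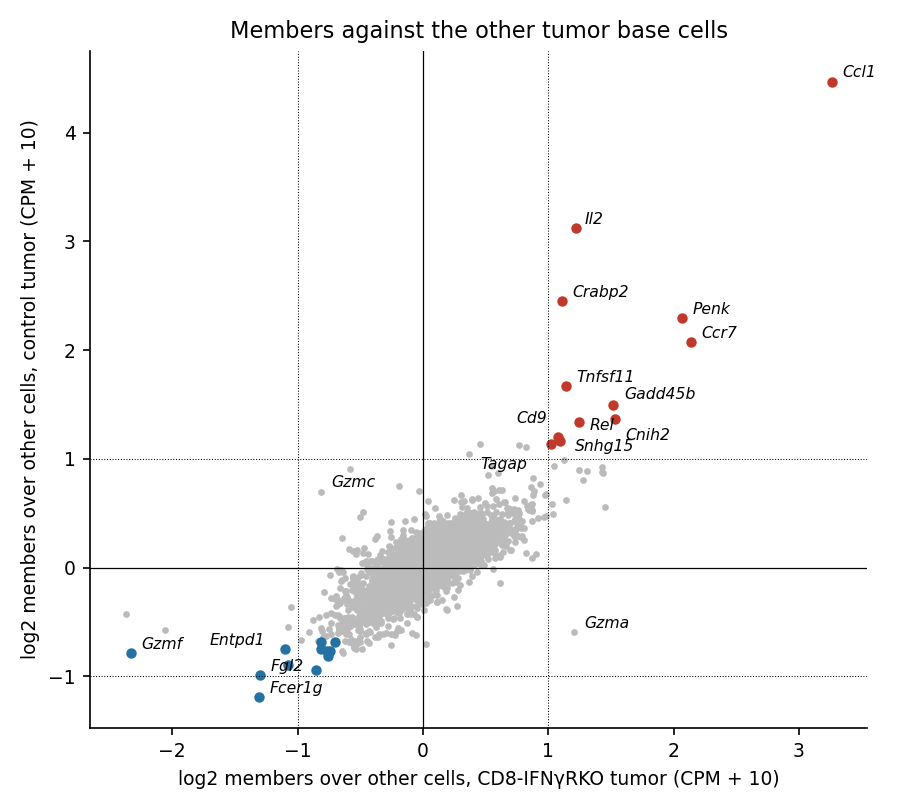
Log2 ratio of members over the other tumor base cells in CD8-IFNγRKO (x axis) and control (y axis), with 1 point per gene tested, 10 CPM added and dotted lines at 2-fold. Red points are the 12 genes at least 2-fold higher in both libraries, with *Ccl1* at 3.26 and 4.47, and blue points are the 12 genes with the lowest ratios by the naming rule.

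Genes of the interferon response were lower in members. Of 26 tested, 24 (92.3%) lay below 0 in both libraries, against 36.0% of all genes, with medians of -0.26 in CD8-IFNγRKO and -0.40 in control, or -0.19 and -0.21 against depth-matched cells, where 19 lay below 0 in both. *Ifngr1* and *Gbp4*, an interferon-induced GTPase, passed 1.5-fold, but none of the 26 did against depth-matched cells. *Ifngr1* (chr10:19591949-19610229) was 139 against 243 CPM in CD8-IFNγRKO and 423 against 728 CPM in control, and the log2 ratio was -0.77 in both, or -0.62 and -0.53 against depth-matched cells. Counts per gene do not show whether reads lie in the deleted part, so that the remaining counts do not check the deletion. *Rtp4*, another interferon-induced gene, had -0.86 and -0.94, or -0.58 and -0.55 against depth-matched cells.

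Of 16 cytotoxic genes, 10 lay below 0 in both libraries (62.5%, against 36.0% of all genes), with medians of -0.31 and -0.22. Against depth-matched cells 8 did (50%, against 35.8%), with medians of -0.27 and -0.05. *Gzmb*, the main granzyme of killer cells, was 3906 against 4925 CPM and 2622 against 3384 CPM, and *Prf1*, which encodes perforin, had ratios of -0.32 and -0.24. *Gzmf* was 49.3 against 287 CPM in CD8-IFNγRKO and 390 against 682 CPM in control. Single members held 43.9% and 37.6% of its UMIs, and 5 members 77.8% and 68.7%. It was detected in 8.64% of CD8-IFNγRKO members against 16.9% of the others and in 34.2% of control members against 30.3%. With cells thinned to 5000 UMIs, it was found in 5.96% against 13.7% in CD8-IFNγRKO and in 27.2% against 32.0% in control. *Gzmk* had -0.97 and -0.67, or -0.89 and -0.53 against depth-matched cells. Of other kinds, 3 genes were also lower in both libraries. *Fcer1g*, the signaling chain of Fc receptors, was 14.9 against 51.6 CPM and 25.1 against 70.2 CPM, and was the 1 gene past 2-fold lower, with ratios of -1.31 and -1.19. It is also on the lists of macrophage and NK cell markers, and the part of such cells in its ratio was not tested. *Fgl2*, a secreted fibrinogen-like protein, had -1.30 and -0.99, and the predicted gene *Gm36723* -1.08 and -0.90. *Ugcg*, the glucosylceramide synthase, *Mxd1*, a partner of MAX that opposes MYC, and *Wdr95* lay between -0.69 and -0.82, or between -0.48 and -0.69 against depth-matched cells. Of 20 G2/M genes, 14 were below 0 in both libraries (36.0% of all genes were), with medians of -0.31 and -0.13, and the proliferation gene *Mki67* had -0.56 and 0.15. Of 23 S phase genes, 5 were below 0 in both (21.7%, against 36.0% of all genes) and 3 above, with medians of -0.15 and 0.11. Against depth-matched cells all 20 G2/M genes were below 0 in both (35.8% of all genes), with medians of -0.48 and -0.50. So were 22 of the 23 S phase genes, with medians of -0.22 and -0.21, and *Mki67* had -0.73 and -0.33. With cells thinned to 5000 UMIs, *Mki67* was found in 27.7% of members and 39.6% of others in CD8-IFNγRKO, but in 38.8% and 25.5% in control, so that its direction in control differed between the depth corrections.

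The members were not uniform in how much *Xcl1* they held. Members with 3 to 5, 6 to 19 and 20 or more *Xcl1* UMIs numbered 61, 105 and 135 in CD8-IFNγRKO and 39, 41 and 31 in control. In CD8-IFNγRKO, *Ccl1* was 45.5, 132 and 343 CPM over the 3 bands, and *Ifng* 577, 748 and 1544 CPM. In control, *Ccl1* was 624, 565 and 1115 CPM, and *Ifng* 734, 663 and 682 CPM. *Ccl4* was highest in the top band of both libraries, at 4059 CPM in CD8-IFNγRKO and 3325 CPM in control. *Tcf7* went the other way, with 41.3, 35.9 and 9.86 CPM in CD8-IFNγRKO and 18.0, 7.24 and 1.58 CPM in control, the last from a single UMI. Cells of all bands had similar depth in CD8-IFNγRKO, with medians of 15094, 14305 and 14682 UMIs, while the control medians were 16473, 14171 and 19218.

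**Figure D3:**
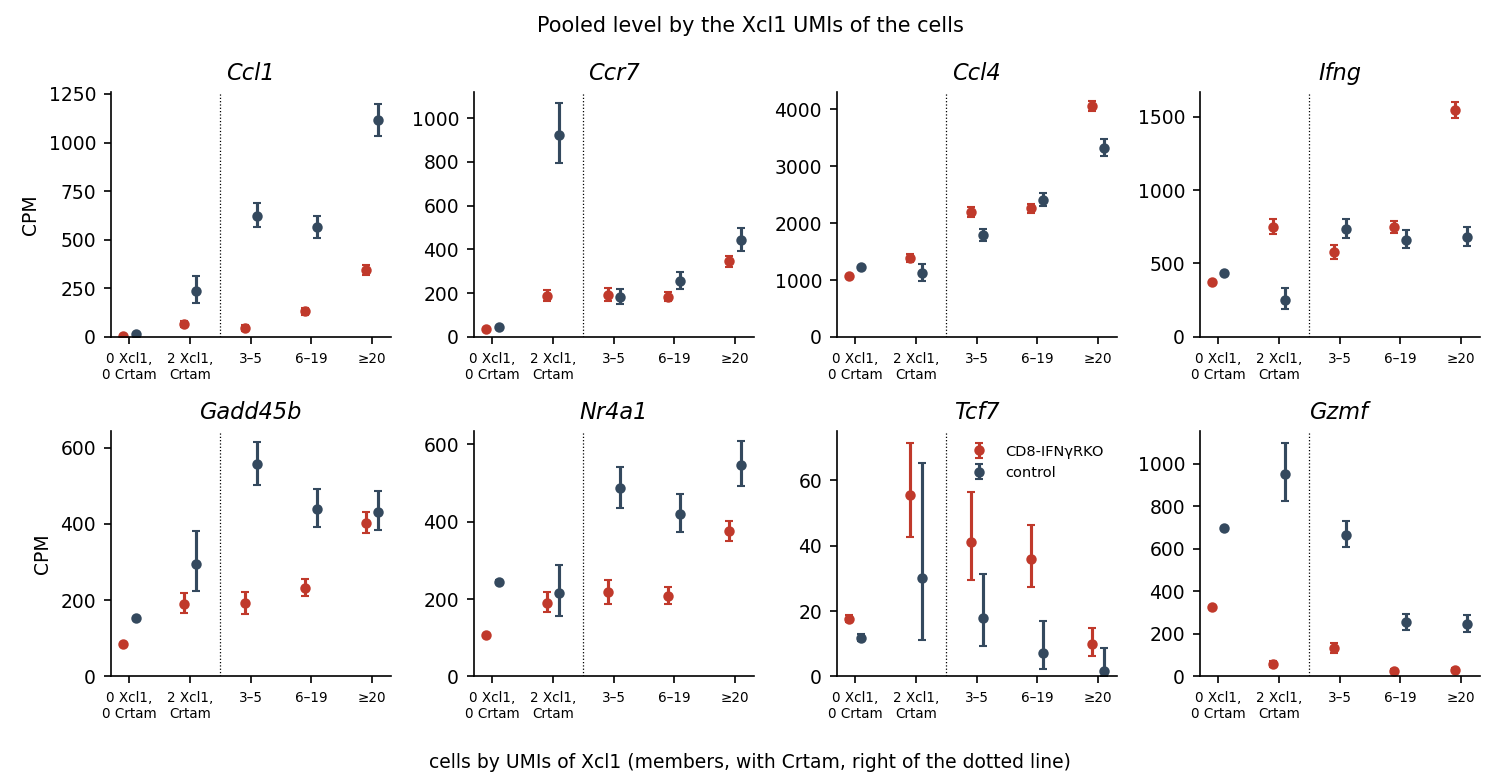
Pooled CPM, with exact 95% intervals for counting error, of 8 genes in cells with neither gene, cells with 2 *Xcl1* UMIs and *Crtam*, and members by their *Xcl1* UMIs, in both tumor libraries. *Ccl1* and *Ccl4* stand highest in members with 20 or more *Xcl1* UMIs in both libraries, and *Tcf7* lowest.

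Members of the 2 genotypes were set against each other in 3054 genes, with the same ratio in the other base cells beside it. In members, 15 genes (0.491%) were at least 2-fold higher and 31 (1.02%) at least 2-fold lower in CD8-IFNγRKO. The counts were 27 and 37 with another library size, and 30 and 41 with a pseudocount of 1 CPM. With the mean of each cell's CPM they were 30 and 43. They were 118 and 43 with cells thinned to 5000 UMIs, where the rule was applied again and left 151 CD8-IFNγRKO and 37 control members. In this last setting, with fewer members, more genes were higher than lower, unlike in the main setting. The median of all ratios was 0.04 in members and 0.03 in the others. *Ifngr1*, the targeted gene, had -1.54 in members and -1.55 in the other cells. Of the 20 genes named for this comparison, *Il2* alone had another sign in the other cells.

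*Gzma*, a granzyme, was the highest, at 388 CPM in CD8-IFNγRKO and 26.6 CPM in control members, a log2 ratio of 3.44 (3.14 to 3.74) against 1.65 in the others. It was uneven among cells: 491 of its 1880 UMIs came from 1 CD8-IFNγRKO member, and control members had only 53 UMIs, 33 of them in 1 cell. The heat shock genes *Hspa1a* and *Hspa1b*, near-identical copies, were higher by 1.85 and 1.78 in members and by 1.84 and 1.63 in the others. *Myc* was 194 against 63.3 CPM, a ratio of 1.48 (1.24 to 1.72) beside 0.94, *Srm* had 1.20 beside 0.78, and *Ppan*, a ribosome biogenesis gene, 1.11 beside 0.33. Of the 17 MYC and amino acid genes, 4 were at least 2-fold higher (0.491% of all genes were), with a median of 0.81 in members and 0.52 in the others, against 0.04 and 0.03 over all genes. *Shmt1*, a serine hydroxymethyltransferase, *Hmgn1*, a nucleosome-binding protein, the chaperone gene *Hspd1* and *Gm26917* lay between 1.07 and 1.30.

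Lower in CD8-IFNγRKO members were 3 granzyme genes from a family of similar copies. *Gzme* was 2.06 against 270 CPM and *Gzmd* 2.89 against 188 CPM, and *Gzmf* had -2.75 beside -1.22 in the others, with 37.6% of its control UMIs in 1 member. All 14 *Gzmd* UMIs of CD8-IFNγRKO came from 1 cell, and the 10 of *Gzme* from 5 cells. *Spp1*, which encodes osteopontin, was 105 against 624 CPM (-2.46, beside -1.52), with 54.6% of the CD8-IFNγRKO UMIs in 1 member. *Areg*, the growth factor amphiregulin, had -2.39 beside -2.51, *Csf1*, the macrophage growth factor, -2.13 beside -1.74, and *Serpine2*, a protease inhibitor, -1.77 beside -2.04. *Ccl1* was 212 against 760 CPM, a ratio of -1.79 (-1.90 to -1.68) beside -0.59 in the others, and *Il1r2*, the decoy receptor for interleukin-1, had -1.74 beside -0.81. *Il2* had -1.88 beside 0.02, from the few cells named above. *Ifng* had 0.63 beside -0.26 in the others, while 64.9% of CD8-IFNγRKO and 81.6% of control members had a UMI of it at 5000 UMIs a cell. *Ccl5* had -1.52 beside -1.56.

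**Figure D4:**
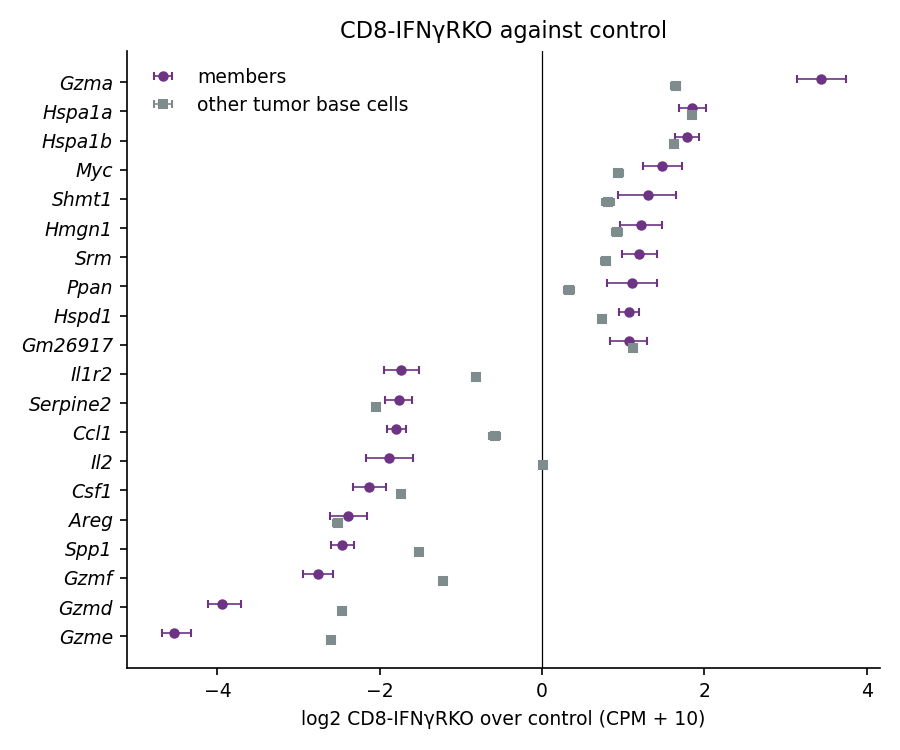
Log2 ratio of CD8-IFNγRKO over control for the 10 highest and 10 lowest genes named between the genotypes, in members (circles) and in the other tumor base cells (squares), with exact 95% intervals for counting error. *Gzma* (3.44 beside 1.65) and *Gzme* (-4.54 beside -2.60) stand apart from the other cells, while *Hspa1a* (1.85 beside 1.84) does not.

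The TCR sequences are a readout that the rule did not use. Both chains were recovered in 185 of 301 CD8-IFNγRKO members, 61.5% (55.7 to 67.0), and in 39 of 111 control members, 35.1% (26.3 to 44.8). Among the other cells these shares were 69.0% and 60.7%, or 70.7% and 42.9% when matched for depth, so that most control members have no clone. Members with both chains fell into 33 clones in CD8-IFNγRKO and 12 in control, and no member clone was found in both libraries. Clones of 2 or more cells held 94.1% of CD8-IFNγRKO and 97.4% of control members with both chains, against 93.9% and 95.7% of the others. The intervals of these shares overlapped in both libraries.

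Clones differed in how many members they gave. In CD8-IFNγRKO, the largest clone had 24 members among 1463 cells, 1.64% (1.05 to 2.43), and the next had 44 among 1200, 3.67% (2.68 to 4.89). In control, the largest clone had 1 member among 1104 cells, 0.0906%, and the clone with the most members 14 of 516. Of the clones with at least 20 cells, 8 of 25 in CD8-IFNγRKO and 14 of 22 in control had no member.

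The highest share in CD8-IFNγRKO belonged to cells with the alpha chain TRAV7-4 TRAJ21, singled out here after the values of all chains had been seen. Of 228 cells with it, 38 were members, 16.7% (12.1 to 22.2), against 263 of 8410 other base cells, 3.13% (2.77 to 3.52). Of the 25 alpha chains with at least 20 cells the median share was 2.04%, and the next highest, TRAV14-3 TRAJ49, had 12.8%. Its junction (CDR3, the stretch that most contacts the antigen) is shown because it was paired with 2 different beta junctions, both TRBV12-2+TRBV13-2 as the files name them, with TRBJ2-5 and TRBJ2-7. Capitals in the beta chains run from the first base at which they differ to the end.
alpha: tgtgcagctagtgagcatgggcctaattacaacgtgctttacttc
beta 1: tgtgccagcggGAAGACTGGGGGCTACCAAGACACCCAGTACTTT
beta 2: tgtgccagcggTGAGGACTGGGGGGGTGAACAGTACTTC
Beta 1 was found in 221 of these cells, 37 of them members, and beta 2 in 88, 12 of them members. All 88 cells with the alpha chain and beta 2 also held beta 1. By the beta chain with the most UMIs, the cells with this alpha chain and beta 1 were counted as 2 clones. These had 133 and 88 cells, 25 and 12 of them members, and both enter the clone counts above. Beta 1 occurred in 651 further cells without this alpha chain, and 11 of those were members. Beta 2 occurred in 114 further cells without it, and 0 of those were members. More than 1 beta chain was found in 13 CD8-IFNγRKO members (4.32%), 12 of which carried this alpha chain, and in 1.96% of the others. In control the shares were 0.901% and 1.30%.

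Other genes were compared between cells with and without the alpha chain. *Gzma* was 695 CPM in the members with it and 695 CPM in the other cells with it, against 358 CPM in members without it and 152 CPM in the remaining cells. *Ccl1* was 401 CPM in members with it and 3.999 CPM in other cells with it, beside 194 and 13.3 CPM in those without it, and was found in 23.7% of members with the chain and 25.1% of those without. *Ccr7* was found in 10.5% of the members with the chain and 47.9% of those without, at pooled levels of 282 and 258 CPM, and *Penk* in 2.63% and 20.2%, at 6.997 (3 UMIs) and 127 CPM. *Myc* was 303 and 183 CPM in the members with and without it. The immunoglobulin genes *Igkc* and *Ighm* of B cells were 106 and 61.9 CPM in all cells with the chain and 22.8 and 15.6 CPM in the rest. Over 8 B cell markers, the summed level was 58.8 CPM in members and 42.6 CPM in the others of CD8-IFNγRKO, and 10.6 and 11.7 CPM in control. *Igkc* was the most abundant of them, *Cd79a*, *Ms4a1* and *Pax5* were at 0 UMIs in members, and the part of B cell RNA was not tested. The cells with the chain were not deeper than the rest, with medians of 8626 and 9430 UMIs.

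**Figure D5:**
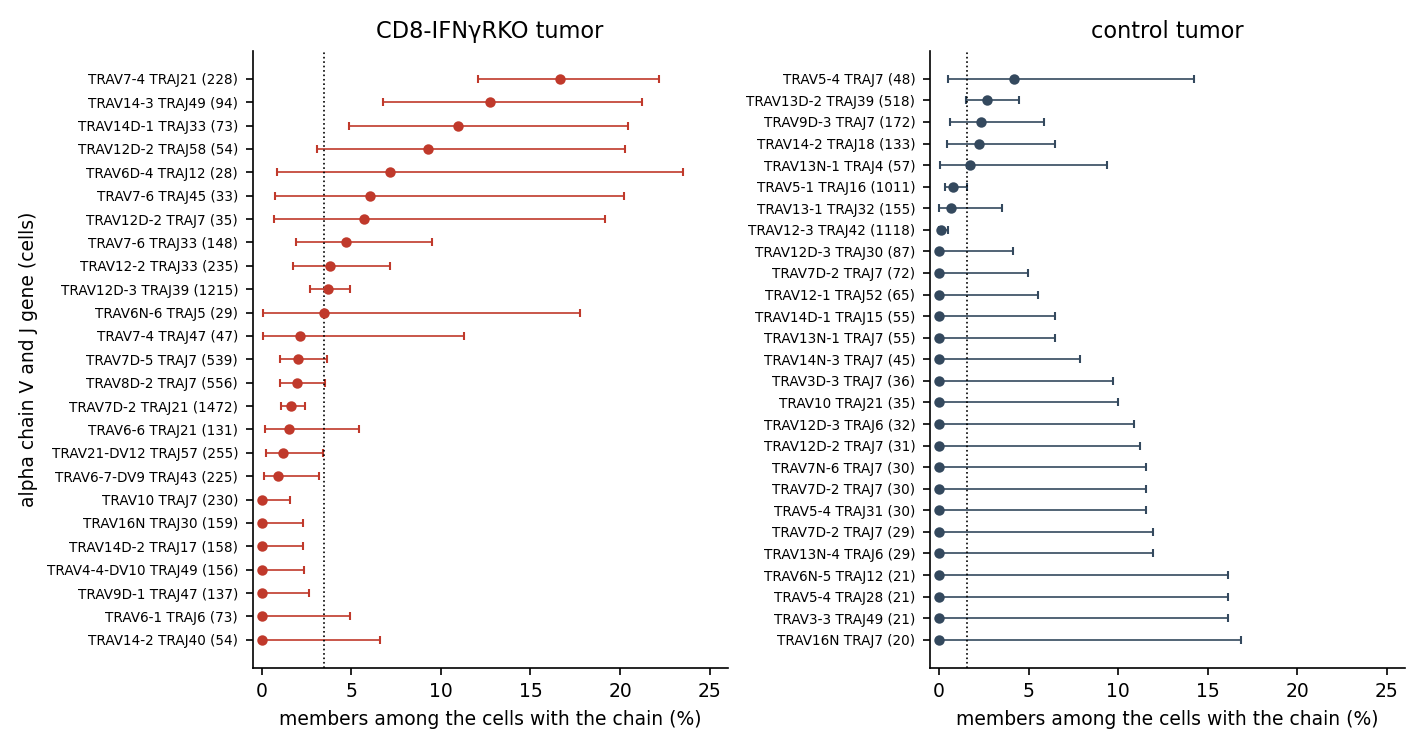
Percent of cells that are members among the cells with each alpha chain found in at least 20 base cells, with exact 95% intervals, the number of cells in brackets and a dotted line at the share in all base cells. TRAV7-4 TRAJ21 leads in CD8-IFNγRKO at 16.7%, and 19 of 27 chains in control have no member.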

How the data were processed

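The authors mapped reads with Cell Ranger (6.0.0 per the file headers) to a mouse reference of build mm10 and deposited, for each barcode called a cell, the count of UMIs of every gene. For the tumor libraries they also deposited the read and UMI counts of each TCR contig. Neither was normalized. Low barcodes were removed by that calling, so that shares refer to called cells.

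The analysis used Python 3.11.15 with pandas 2.3.3, numpy 2.4.6 and scipy 1.17.1, and the plots matplotlib 3.10.9. Tumor base cells were divided by the rule, and UMIs were summed over the cells of each library and scaled to CPM. The 2 tumor libraries were described one by one, by log2 ratios after 10 CPM had been added. Exact 95% intervals were Poisson for levels, Clopper-Pearson for shares and conditional binomial for ratios. Cells are not replicates, so that no test was made. The interval and ratio code was tested on simulated data. No doublet caller was run, and cells with more than 1 beta chain were counted instead. A clone is the set of cells whose alpha and beta chains with the most UMIs have the same V gene, J gene and CDR3 bases.

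Named genes were the 12 with the highest smaller and the 12 with the lowest larger of the 2 ratios, and the 10 highest and 10 lowest between the members of the genotypes, among genes with at least 50 CPM (and 50 UMIs between genotypes). *Xcl1*, *Crtam*, TCR segments, mitochondrial and ribosomal protein genes were left out, and genes of the lists were named to describe these. Some genes that meet these rules are not reported here. The members and lists were chosen with earlier results of these data known. Alternatives covered the rule, depth, scaling, pseudocount, CPM minimum, clones and cells with signs of mixing. Precision follows the number of UMIs: *Gadd45b*, with 1468 UMIs in CD8-IFNγRKO members, had an interval of 1.44 to 1.60, and *Crabp2*, with 66, one of 0.93 to 1.28.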

Additional observations from a re-analysis of the deposited data

Results flagged for a closer look

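Among the 3261 genes tested, 2 were at least 1.5-fold higher in the members of 1 tumor library and at least 1.5-fold lower in those of the other, and the difference between the libraries was not tested, since each genotype is 1 library. *Gzma* had a log2 ratio of members over others of 1.20 in CD8-IFNγRKO (388 against 163 CPM) and of -0.59 in control (26.6 against 45.3 CPM). *Gzmc* had -0.82 in CD8-IFNγRKO (340 against 607 CPM) and 0.70 in control (338 against 204 CPM). Against depth-matched cells the control ratio of *Gzma* was -0.26 and that of *Gzmc* 0.33, so that neither then passed 1.5-fold in control. *Gzma* was detected in 11.7% of control members and 6.004% of the other control cells. One member held 26.1% of the *Gzma* UMIs of CD8-IFNγRKO, and 1 held 62.3% of those of control.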

How the results depend on the processing

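Of 85 alternative values of the shares, gene counts and clone measures, 57 stayed within the interval or within 1.5 times the main count. Thinning to 5000 and 3000 UMIs gave shares of 2.36% and 1.49% in CD8-IFNγRKO and 0.829% and 0.374% in control. Counts of genes after thinning, given below, are for the 151 CD8-IFNγRKO and 37 control members chosen again at 5000 UMIs. A rule of 5 *Xcl1* and 2 *Crtam* UMIs gave 2.05% and 0.774%, and one of 2 and 1 UMIs gave 4.33% in CD8-IFNγRKO. Genes at least 2-fold higher in members, 12 in the main setting, numbered 23 with the mean of each cell's CPM, 36 after thinning, 40 at 1.5-fold and 41 at 1.5-fold against depth-matched cells. Genes lower, 1 in the main setting, numbered 3 with a pseudocount of 1 CPM, 2 with another library size, centred ratios or no cells with macrophage UMIs, 4 under the 5 and 2 rule, 8 with the mean CPM, 22 after thinning, 26 at 1.5-fold and 9 at 1.5-fold against depth-matched cells. Genes higher in CD8-IFNγRKO members, 15 in the main setting, numbered 30 with a pseudocount of 1 CPM or the mean CPM, 28 with a minimum of 20 CPM, 29 with none, 27 with another library size, 23 under the 5 and 2 rule and 118 after thinning. Genes lower there, 31 in the main setting, numbered 47 with no minimum. The cause of these changes was not tested.

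Of 1000 alternative values of 68 named ratios, 798 kept their value within the interval, 198 moved with the same sign, and 4, all of *Il2*, changed sign. The *Il2* ratio in control was -0.35 under the 5 and 2 rule and -0.50 after thinning, and between genotypes 1.66 and 0.73, since the 1 control cell with *Il2* then falls outside the members. Leaving out the cells with the TRAV7-4 alpha chain and both counts at 1.5-fold were added after seeing the data. Scalings moved the median of all genes by less than 0.1. No paired analysis was possible because each group is 1 library, and no replicate could be left out. Depth limits genes with few UMIs in the 111 control members.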

Other observations

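The 16 CD8-IFNγRKO and 14 control LN cells that met the rule differed from the tumor members in several genes. *Ccl1* was found in 1 of 16 and 1 of 14 of them, and *Penk* in none of either. *Ccr7* was lower than in the other LN cells, with 273 against 642 CPM in CD8-IFNγRKO and 354 against 585 CPM in control, where in tumor it was higher. *Tcf7*, high in LN, was 318 against 554 CPM and 294 against 579 CPM. *Nr4a1* was 197 against 51.4 CPM and 324 against 49.2 CPM, and *Cd160* 134 against 25.97 CPM and 138 against 26.1 CPM, so that both were higher as in tumor members. No UMI of *Gzmb* was found in these LN cells. These values rest on 157242 and 166738 UMIs in all.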
